A study of Rattus norvegicus with 6 samples.

Results

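The genes described here are the Hox genes and 5 further families of transcription factors that mark position in the embryo, Meis, Pbx, Tbx, Msx and the sine oculis homologues (symbols such as Six4), in 2 rat cell strains. Members were all probe sets whose single annotated symbol starts with Hoxa, Hoxb, Hoxc, Hoxd, Meis, Pbx, Tbx, Msx or the sine oculis stem, as in Six4, followed by a number. This gave 51 of the array's 20826 probe sets with a single symbol, or 42 of 14217 genes: 24 Hox, 3 Meis, 3 Pbx, 6 Tbx, 4 sine oculis homologues and 2 Msx. Hox, Meis, Pbx, Msx and sine oculis proteins carry a homeodomain, whereas Tbx proteins bind DNA through a T-box, so Tbx genes are positional but not homeobox genes. Hoxa11-as, a non-coding antisense transcript of Hoxa11, also met the rule. A further 29 symbols of these families in RefSeq, 17 of them Hox, are not analysed here, among them Hoxa6 and Hoxc6.

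Gene expression was measured in BDEsp-TDECC (TDECC), a clonal cholangiocarcinoma cell strain, and BDEsp-TDESM (TDESM), a clonal strain of cancer-associated fibroblasts that the labels describe by its overexpression of Acta2. Both came from tumours of the Fischer 344 genetic background that grew in young adult male rats after their bile ducts were inoculated with spontaneously transformed cholangiocytes, the BDEsp cells. Each strain was measured on 3 arrays, all of which carry the same label of a co-culture in collagen type I gel and of the TGF-beta inhibitors SB 431542 and LY2157299. The labels do not say which cultures received them, so no treatment was compared. Each strain is 1 clone, and the labels do not mention separate cultures for its arrays. P-values therefore measure array-to-array spread, which may be technical, and a difference between strains may be one between clones.

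Levels are RMA values on the log2 scale, so a difference of 1 is a 2-fold change, and differences are TDESM minus TDECC. Array medians lay between 5.80 and 5.86. Arrays of a strain correlated across genes at 0.968 to 0.975 in TDECC and at 0.995 to 0.998 in TDESM. The median level of 49 markers of leukocytes, endothelium, hepatocytes, muscle, neurons and retina was 4.36 in TDECC and 4.31 in TDESM. Their upper quartile, 4.99 in TDECC and 4.86 in TDESM, served as a limit below which a reading was taken as background. Some of these markers read above it, up to 11.16 in TDECC and 9.95 in TDESM, so a reading above the limit does not by itself show expression. Of 8 measured bile duct epithelial markers 7 were lower in TDESM and 1, Spp1, was higher, and all 11 fibroblast markers were higher, in the direction of the labels. Acta2, by which the labels describe TDESM, was among these 11. Among other cell types, 3 of 6 mesothelial markers were higher in TDESM, including Wt1, and 1, Msln, was lower. Of 9 stellate cell markers 3 were higher, including Lhx2. Over all genes 22.1% passed as higher and 20.6% as lower, by the limma threshold given below. The mesothelial marker Krt5 had a TDESM mean of 4.56, below the background limit. Its call and that of the stellate marker Ecm1 were lost without any 1 TDESM array and in further settings. The summed log2 level of the mesothelial markers ran from 32.80 to 33.49 in TDECC and from 32.34 to 32.98 in TDESM, and that of the stellate markers from 38.65 to 41.31 and from 44.32 to 45.47. Lrat and Ngfr, of the stellate markers, and Upk1b, of the mesothelial markers, read as background in both strains. The part of these cell types in the results was not tested, and in bulk RNA fewer cells of a type and less RNA per cell cannot be told apart.

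Hox genes lie in 4 clusters, a to d, and within a cluster their order on the chromosome follows the order in which they are used from head to tail of the embryo. Low numbers are used towards the head and high numbers towards the tail, and cultured adult fibroblasts are known to keep part of the Hox pattern of the body site they came from. Pbx and Meis proteins bind DNA together with Hox proteins, and sine oculis proteins act with Eya and Dach cofactors. The comparison between strains asked which of these position marks a bile duct cancer strain and a fibroblastic strain of the same tumour model carry.

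Of the 42 genes, 19 passed an adjusted p of 0.05 by limma (45.2%), 9 higher and 10 lower in TDESM. Among all genes tested 42.7% passed, 22.1% higher and 20.6% lower, so the share of positional genes called was close to that of the array as a whole. A call with at least a 2-fold difference was made for 13 positional genes (31.0%, against 25.5% of all genes), and the 3 values of each strain did not overlap for 26 (61.9%, against 53.6%). The median difference was -0.09, against 0.0033 over all genes. What the genes showed was a split by family and cluster: all 4 measured Hoxc genes were lower in TDESM and all 3 Meis genes higher, while 0 of 7 Hoxd genes passed. These are counts over small families, with no test of the difference between families. At background in both strains were 11 of the 42 genes: Hoxa11, Hoxa11-as, Hoxd1, Hoxd8, Hoxd10, Hoxd11, Tbx4, Tbx5, Six3, Six6 and Msx2. Counted by probe set, 20 of 51 passed, 9 higher and 11 lower, and 28 had separate groups. Among all 20826 probe sets 40.7% passed, 21% higher and 19.7% lower, and 52.1% had separate groups. At least 2-fold calls were 13 of the members' probe sets and 24.1% of all.

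All directions are relative to the median gene, because RMA brings the arrays to a common distribution. Under centring on the spiked-in poly-A controls the median gene moved by -1.22. The adjusted p there followed the size of the difference and not the spread of the gene, so a call is a threshold on size. Hlx and Rxrb, of the regulator lists below, both differed by -1.19 there at a limma adjusted p of 0.00196, with TDECC SDs of 0.75 and 0.11. On that scale Meis1, Meis2, Hoxb2 and Tbx18 were still called higher in TDESM. Hoxb4 and Pbx3 were then near 0, and Meis3, Pbx2 and Msx1 turned to small negative values, none of these 5 past the threshold.

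**Figure D1:**
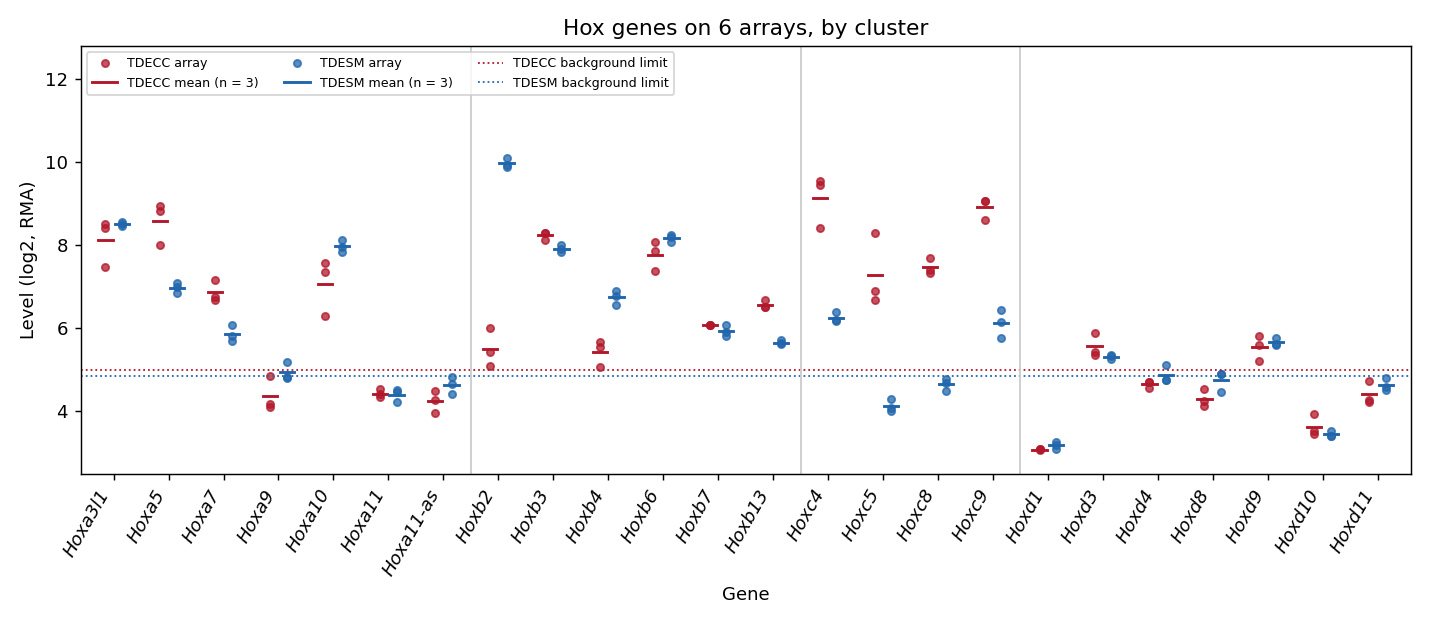
Level (log2, RMA) of each Hox gene on the 3 arrays of TDECC (red) and the 3 of TDESM (blue), with strain means as bars, grouped by cluster and ordered by number. The 4 Hoxc genes sit lower in TDESM, Hoxb2 sits near 10 in TDESM and near 5.5 in TDECC, and the means of 4 of the 7 Hoxd genes lie below the dotted background limits in both strains.

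The promoter windows of 4 genes that differed between strains are shown to give the sequence around their start sites: Meis1 and Tbx18, which were higher in TDESM, and Hoxc4 and Hoxa7, which were lower. Among called genes with a window, Meis1 and Tbx18 had the largest differences upward and Hoxc4 and Hoxa7 downward. Each is a window of 300 bases around the start in RefSeq, build GRCr8, and 25 of the 42 members had an entry. Capitals mark matches on either strand to TGATNNAT, an octamer bound by Hox with Pbx, to TGACAG, the core bound by Meis and Tgif proteins, and to AGGTCA, the core bound by retinoic acid receptors and other nuclear receptors.
Meis1, chr14:97495034-97495333, minus strand: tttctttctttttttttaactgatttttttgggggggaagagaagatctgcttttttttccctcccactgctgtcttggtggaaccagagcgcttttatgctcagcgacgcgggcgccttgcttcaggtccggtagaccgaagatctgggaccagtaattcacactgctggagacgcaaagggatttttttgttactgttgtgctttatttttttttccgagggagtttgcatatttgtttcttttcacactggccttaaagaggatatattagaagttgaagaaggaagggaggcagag
Tbx18, chr8:97559916-97560215, minus strand: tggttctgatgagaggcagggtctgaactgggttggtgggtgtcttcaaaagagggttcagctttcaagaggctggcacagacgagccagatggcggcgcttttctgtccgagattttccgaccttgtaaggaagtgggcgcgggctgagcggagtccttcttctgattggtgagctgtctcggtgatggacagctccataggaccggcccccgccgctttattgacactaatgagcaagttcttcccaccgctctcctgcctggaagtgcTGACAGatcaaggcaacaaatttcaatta
Hoxc4, chr7:136048809-136049108, plus strand: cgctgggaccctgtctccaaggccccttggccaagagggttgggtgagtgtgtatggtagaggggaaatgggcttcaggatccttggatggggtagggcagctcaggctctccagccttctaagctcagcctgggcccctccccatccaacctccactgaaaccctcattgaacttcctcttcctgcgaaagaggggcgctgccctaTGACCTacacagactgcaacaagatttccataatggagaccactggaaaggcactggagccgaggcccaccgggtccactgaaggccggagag
Hoxa7, chr4:82648192-82648491, minus strand: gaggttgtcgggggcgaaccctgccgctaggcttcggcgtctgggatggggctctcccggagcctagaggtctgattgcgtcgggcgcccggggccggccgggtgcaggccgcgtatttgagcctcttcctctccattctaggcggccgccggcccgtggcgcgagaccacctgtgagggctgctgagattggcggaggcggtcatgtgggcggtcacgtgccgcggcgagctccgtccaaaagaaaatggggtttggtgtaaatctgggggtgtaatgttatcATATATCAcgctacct
TGATNNAT was found in 2 of the 25 windows, 1 of them that of Hoxa7, and in 9.10% of all 33469 windows. TGACAG was found in 5 of 25, 1 of them that of Tbx18, and in 19.0% of all, and AGGTCA in 3 of 25, 1 of them that of Hoxc4, and in 16.2% of all. Windows of the called genes not shown, Pbx2, Msx1, Pbx4, Tbx19 and Six4, held no match. None of the windows shown held more than 1 match, and the Meis1 window held no match to any of the motifs. The windows held 5 to 49 CpG dinucleotides (median 20, against 7 over all windows), with 9 in Meis1, 6 in Hoxc4, 13 in Tbx18 and 29 in Hoxa7. A match describes these letters and is not a bound site.

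The Hoxc cluster held the falls of at least 2-fold that were largest among Hox genes. Hoxc4, Hoxc5, Hoxc8 and Hoxc9 follow each other in RefSeq, with Hoxc6 between Hoxc5 and Hoxc8 not analysed here, and end the cluster on its head side. Hoxc8 read 7.69, 7.34 and 7.40 on the TDECC arrays and 4.69, 4.49 and 4.77 on the TDESM arrays. The TDECC values were all far above the TDESM values, which lay below the background limit. The difference was -2.83 (SE 0.15, limma adjusted p = 7.77e-06), and its size may be understated since TDESM was at background, as for Hoxc5. Hoxc5 read 6.91, 6.69 and 8.29 in TDECC and 4.29, 4.02 and 4.09 in TDESM, again at background. Replicate 3 of TDECC stood well above the other two, and the difference was -3.16 (SE 0.40, limma adjusted p = 7.02e-04).

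Hoxc9 and Hoxc4 were lower in TDESM but stayed above its background limit. Hoxc9 read 8.62, 9.07 and 9.06 in TDECC and 6.16, 5.76 and 6.44 in TDESM, with a difference of -2.80 (SE 0.21, limma adjusted p = 5.89e-05). Hoxc4 read 8.41, 9.45 and 9.56 in TDECC and 6.17, 6.20 and 6.40 in TDESM. Its groups did not overlap, and the difference was -2.88 (SE 0.30, limma adjusted p = 2.86e-04). A dimmer Hoxc4 probe set read 6.83, 6.45 and 7.28 against 6.01, 5.86 and 5.90. That is a difference of -0.93 (SE 0.21, limma adjusted p = 0.0114 over all probe sets), the same direction but a smaller size. No setting in which they were tested ended the call of any of these 4 genes (Hoxc5 was not tested without the dimmest 33.3% of genes), and centred on the poly-A controls they differed by -4.02 to -4.38.

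The Hoxb cluster moved in both directions, and its largest difference was at the head end. Hoxb2, which patterns the hindbrain and the neural crest that leaves it, read 5.10, 5.43 and 6.0 in TDECC and 9.93, 9.88 and 10.11 in TDESM. The groups were far apart, with TDECC just above its background limit. The difference was 4.46 (SE 0.23, limma adjusted p = 7.73e-06), a 22.1-fold higher level. Hoxb4, known for its role in blood stem cells as well as in the neck, read 5.08, 5.68 and 5.55 in TDECC and 6.57, 6.91 and 6.78 in TDESM. Its difference was 1.32 (SE 0.19, limma adjusted p = 0.0013), or 0.10 centred on the poly-A controls. The gene between them, Hoxb3, went the other way by a little: it read 8.29, 8.13 and 8.29 in TDECC and 7.83, 8.01 and 7.92 in TDESM. Its groups did not overlap, but the difference of -0.32 did not pass (limma adjusted p = 0.0704). It passed only when arrays were centred on housekeeping genes or on the poly-A controls.

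Hoxb6 and Hoxb7 did not pass, with differences of 0.41 (95% interval -0.05 to 0.87) and -0.14 (-0.43 to 0.14). Hoxb6 read 8.07, 7.87 and 7.37 in TDECC and 8.08, 8.20 and 8.25 in TDESM, and passed without TDECC replicate 1 and, lower in TDESM at -0.81, centred on the poly-A controls. Hoxb13, the tail end of the cluster and known from prostate and tail development, read 6.68, 6.51 and 6.52 in TDECC and 5.62, 5.64 and 5.71 in TDESM. With little spread in either strain the difference of -0.91 passed (SE 0.11, limma adjusted p = 6.57e-04).

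In the Hoxa cluster 2 middle members were lower in TDESM, and the next members read higher without passing. Hoxa5, which takes part in lung and trunk patterning, read 8.94, 8.82 and 8.0 in TDECC and 7.0, 6.86 and 7.09 in TDESM. The difference was -1.60 (SE 0.25, limma adjusted p = 0.00203), and replicate 3 of TDECC was the lowest of its strain but above every TDESM array. Hoxa7 read 6.68, 7.17 and 6.76 against 5.69, 5.81 and 6.07, a difference of -1.01 (SE 0.18, limma adjusted p = 0.00329). Hoxa6, between them, is not analysed here.

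Hoxa10, known from the uterus and limbs, read 7.36, 6.30 and 7.58 in TDECC and 7.84, 7.96 and 8.13 in TDESM. The groups did not overlap, but replicate 2 of TDECC stood well below the other two, and the difference of 0.90 (95% interval 0.13 to 1.67) did not pass (limma adjusted p = 0.0634). Without that array the difference was 0.51 and passed (limma adjusted p = 0.0378), and without TDECC replicate 3 it was 1.15 (limma adjusted p = 0.0310). It also passed with cyclic loess (0.95) and without the dimmest 33.3% of genes, and its sign turned on the poly-A controls (-0.32). Hoxa9 read 4.85, 4.19 and 4.11 in TDECC and 5.19, 4.83 and 4.81 in TDESM, around the background limits, and its groups overlapped. Its difference of 0.56 (limma adjusted p = 0.0901) passed without TDECC replicate 1, at 0.79 (limma adjusted p = 0.00769), and turned to -0.66 on the poly-A controls. Hoxa3l1, which RefSeq lists beside Hoxa3 and which may share sequence with it, read 8.52, 8.42 and 7.47 in TDECC and 8.46, 8.52 and 8.57 in TDESM. Apart from TDECC replicate 3 the strains lay together, and the difference of 0.38 did not pass (limma adjusted p = 0.323). Hoxa11 and its antisense transcript Hoxa11-as read as background in both strains.

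None of the 7 Hoxd genes passed by limma, with adjusted p from 0.0847 to 0.615 and 1 at an unadjusted p under 0.05, Hoxd8. Their differences ran from -0.25 to 0.44 and their array values from 3.07 to 5.90 in TDECC and from 3.10 to 5.78 in TDESM. Hoxd3 (brighter probe set) and Hoxd9 read just above the background limits in both strains, at 5.57 and 5.54 in TDECC and 5.32 and 5.67 in TDESM. The dimmer Hoxd3 probe set read 3.1 to 3.5, below them. Hoxd4 was at the limit in TDESM (4.88) and below it in TDECC (4.66), and Hoxd1, Hoxd8, Hoxd10 and Hoxd11 were below it in both. Hoxd8 passed without TDESM replicate 3, at 0.59. On the poly-A scale all 7 were called lower in TDESM, with the median gene.

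By position, 1 of 5 measured Hox genes of groups 1 to 3 passed, Hoxb2, and it was higher in TDESM. Of 10 genes of groups 4 to 8, 5 were lower and 1, Hoxb4, was higher. Of 9 symbols of groups 9 to 13, 2 were lower, Hoxc9 and Hoxb13. Of the 24 Hox symbols 9 passed (37.5%, against 42.7% of all genes), 2 higher and 7 lower. Both higher genes lie towards the head end of the Hoxb cluster. Of the 2 genes numbered 4 that passed, Hoxb4 was higher by 1.32 and Hoxc4 lower by 2.88 on the log2 scale, so members of 1 paralogue group went opposite ways.

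**Figure D2:**
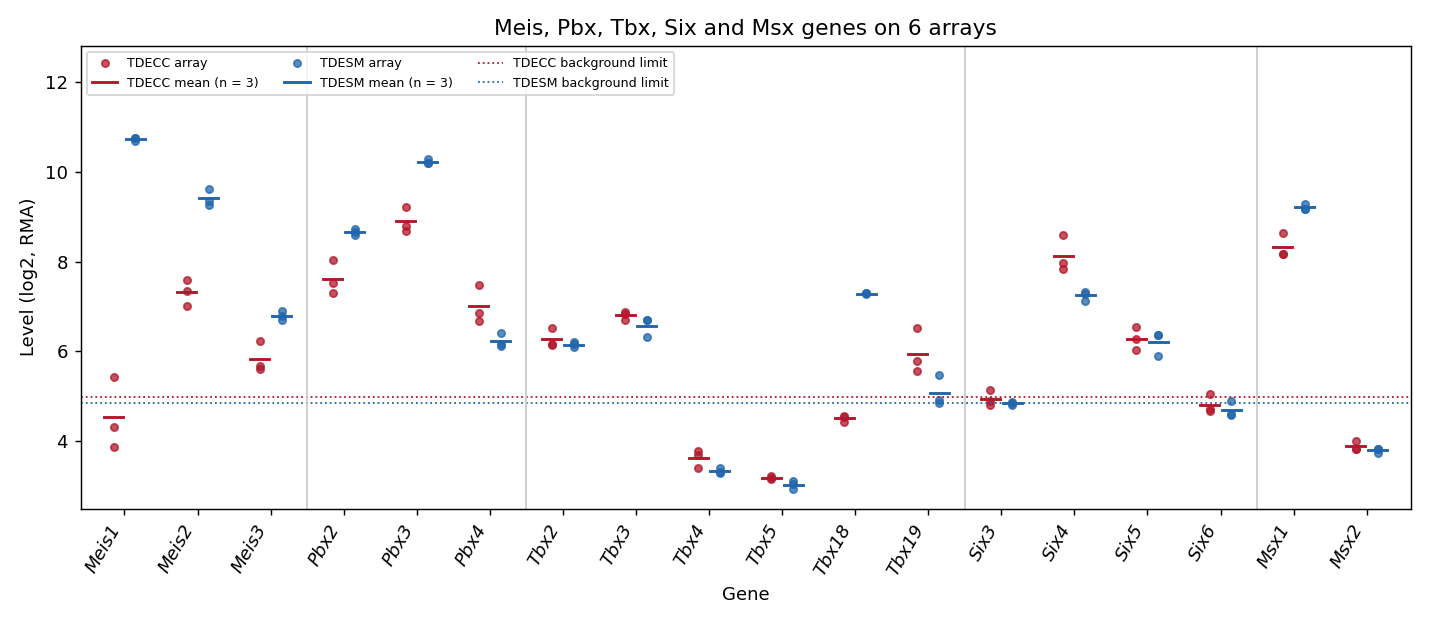
Level (log2, RMA) of the Meis, Pbx, Tbx, sine oculis (Six3 to Six6) and Msx genes on the 3 arrays of each strain, TDECC in red and TDESM in blue, with strain means as bars and background limits dotted. The means of Meis1 and Tbx18 lie below the limit in TDECC and well above it in TDESM.

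Meis and Pbx encode the homeodomain partners of Hox proteins, and 5 of their 6 measured genes were higher in TDESM (22.1% of all genes), of which Meis1 and Meis2 kept the call on the poly-A controls. Meis1 read 5.42, 4.31 and 3.88 in TDECC and 10.74, 10.68 and 10.74 in TDESM. The TDESM arrays were nearly equal, while in TDECC only replicate 1 rose above the background limit. The difference of 6.18 (SE 0.36, limma adjusted p = 1.44e-05) was the largest among the 42 genes, and since the mean of TDECC was at background its size may be understated. It was 4.96 on the poly-A controls and 5.86 to 6.62 when each array was left out in turn. Meis2 lay above the background limit in both strains and read 7.58, 7.01 and 7.35 in TDECC and 9.62, 9.34 and 9.26 in TDESM. Its difference was 2.09 (SE 0.18, limma adjusted p = 1.15e-04), and 0.87 on the poly-A controls. Meis3 read 5.68, 6.24 and 5.60 against 6.89, 6.69 and 6.78, a difference of 0.95 (limma adjusted p = 0.00626) that turned to -0.27 on the poly-A controls.

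Pbx3 read 9.22, 8.78 and 8.69 in TDECC and 10.20, 10.20 and 10.28 in TDESM, a difference of 1.33 (SE 0.16, limma adjusted p = 6.13e-04). Pbx2 read 7.52, 8.04 and 7.29 against 8.65, 8.72 and 8.59, a difference of 1.04 (SE 0.20, limma adjusted p = 0.00523). Both groups were separate, but on the poly-A controls Pbx3 stood at 0.11 and Pbx2 turned to -0.18, neither past the threshold. Pbx4 went the other way, at 6.85, 7.48 and 6.68 in TDECC and 6.17, 6.40 and 6.12 in TDESM. Its difference of -0.77 (limma adjusted p = 0.0281) lost its call without any 1 TDESM array (limma adjusted p = 0.0918, 0.0570 and 0.0985 without replicates 1, 2 and 3). Calls over all genes also fell in these 3 settings, from 6065 to between 4605 and 4835.

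Among the T-box genes 1 of 6 was clearly different. Tbx18, known from the epicardium, the ureter and the mural cells of vessels, read 4.42, 4.54 and 4.56 in TDECC and 7.27, 7.29 and 7.30 in TDESM. Both strains varied little, and the difference was 2.78 (SE 0.11, limma adjusted p = 1.92e-06) from background in TDECC, so that its size may be understated, or 1.56 on the poly-A controls. Tbx19, a factor of the pituitary, read 6.51, 5.56 and 5.78 against 4.84, 5.48 and 4.91. The TDESM array of replicate 2 came just below the lowest TDECC array. Its difference of -0.87 (limma adjusted p = 0.0457) lost its call without TDECC replicate 1 (-0.59, limma adjusted p = 0.0744) or 3 (0.0674) and without TDESM replicate 1 (0.148) or 3 (0.146). It was also lost with the replicate number as a block (0.0815) and when centred on ribosomal protein genes (0.0584). Tbx2 and Tbx3, limb and heart regulators, stood at 6.27 and 6.80 in TDECC and 6.15 and 6.56 in TDESM and did not pass (limma adjusted p = 0.562 and 0.247). The other 2 probe sets of Tbx2 and 3 of Tbx3 differed by -0.28 to 0.04 and did not pass either. Tbx4 and Tbx5, which mark hindlimb and forelimb, read as background in both strains, from 2.93 to 3.78.

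In the sine oculis family, which acts in muscle, kidney and eye development, 1 of 4 genes passed. Six4 read 7.96, 7.83 and 8.58 in TDECC and 7.27, 7.33 and 7.13 in TDESM, a difference of -0.88 (SE 0.21, limma adjusted p = 0.0131). The groups were separate, with the call lost without TDESM replicate 3 (-0.82, limma adjusted p = 0.0564). Six5 stood at 6.28 and 6.20 and did not differ beyond its spread (95% interval -0.55 to 0.39), and the eye genes Six3 and Six6 read as background. Msx1, a target of BMP signalling in limb and face mesenchyme, read 8.16, 8.64 and 8.17 in TDECC and 9.16, 9.18 and 9.27 in TDESM. Its difference was 0.88 (SE 0.16, limma adjusted p = 0.00407), and -0.34 on the poly-A controls. All 3 probe sets of Msx2 read from 3.37 to 4.0 and differed by -0.23 to 0.15, none past the threshold.

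**Figure D3:**
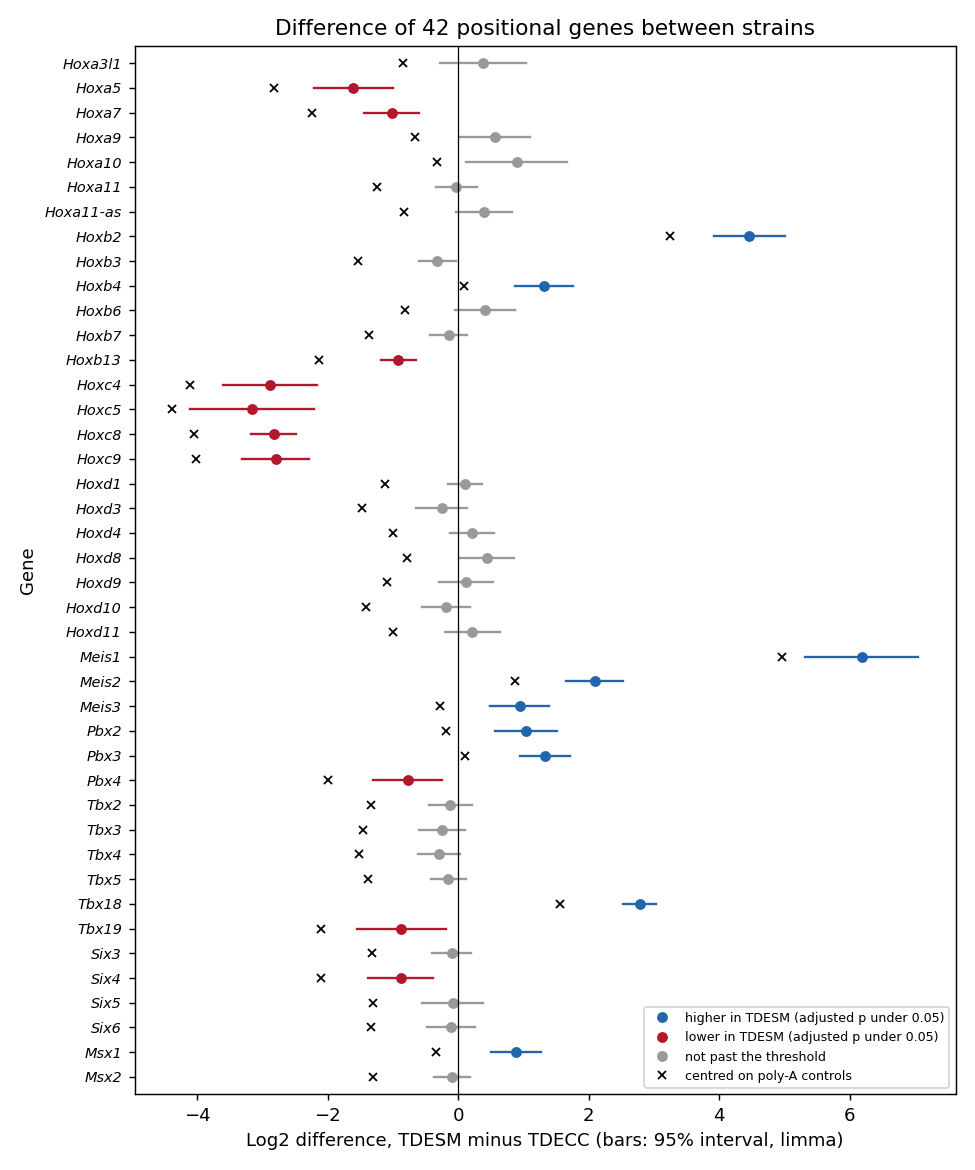
Log2 difference, TDESM minus TDECC, of the 42 genes with 95% intervals from limma (blue higher, red lower, grey not past an adjusted p of 0.05). Crosses give the difference when arrays were centred on poly-A controls, which shifts all genes to the left and leaves Hoxb2, Meis1, Meis2 and Tbx18 called higher.

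An exact two-sided permutation test on any single gene cannot go below p = 0.1 with 3 against 3 arrays, which is the value for each gene with separate groups. The median SD of the 42 genes was 0.27 in TDECC and 0.12 in TDESM, close to 0.24 and 0.12 over all genes. The larger SD was in TDECC for 33 of the 42 (78.6%), against 77.2% of all genes.

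Regulators that act with or upstream of these genes were counted by lists. Of 9 measured partners of Hox proteins and cofactors of sine oculis proteins 5 passed as higher and 2 as lower (all genes: 22.1% and 20.6%). Their median difference was 0.57, or -0.65 on the poly-A controls. Pbxip1, which binds Pbx proteins, was higher by 3.11. The sine oculis cofactors divided: Eya1 was higher by 2.91 and Dach1 by 2.55, both from background in TDECC, whereas Eya2 fell from 8.99 to 4.38, a difference of -4.62 (limma adjusted p = 2.17e-05), or -3.41 averaged over probe sets. Tgif1, which binds the Meis core motif, differed by -0.69, a call lost without TDESM replicate 3.

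Polycomb proteins keep Hox clusters silent, and trithorax proteins keep them active. Of 25 polycomb genes 12 passed as lower and 2 as higher, at a median of -0.53, and of 15 trithorax and related genes 8 as lower and 0 as higher, at a median of -0.87. All-gene shares were 20.6% lower and 22.1% higher. Among the lower polycomb genes the largest differences were those of Cbx7 (-2.73, to background in TDESM), Ezh1 (-2.69) and Pcgf6 (-1.33). Rnf2, a polycomb ubiquitin ligase, was higher by 1.90 and Pcgf3 by 0.79. On the poly-A controls Rnf2 stood at 0.68 and Pcgf3 at -0.43, neither past the threshold. Among trithorax and related genes Mllt3 differed by -2.40, the methyltransferase gene Kmt2b by -1.88 and Men1, encoding menin, by -1.50. Their count of 0 higher genes became 1, Dot1l, with cyclic loess, centring on ribosomal protein genes or without the dimmest 33.3% of genes. It also became 1 without TDECC replicate 3, and Dot1l was the 1 higher gene with an unadjusted p under 0.05.

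Retinoic acid and Cdx proteins set Hox expression in the embryo. Of 18 genes of this list 6 passed as lower and 2 as higher (all genes: 20.6% and 22.1%), at a median of -0.04. On the poly-A controls 15 passed as lower and 2 as higher, at a median of -1.26. In that setting 10873 of all 14217 genes passed as lower and 898 as higher, at a median of -1.22. Aldh1a3, which makes retinoic acid, differed by -3.96, and Cyp26a1, which breaks it down, by -2.76. Rdh10, which makes its precursor, differed by -2.52, or by -1.32 when its probe sets were averaged. The TDECC arrays spread widely for all of them, so the sizes are imprecise. Aldh1a3 read 7.64, 10.06 and 6.31 there, Cyp26a1 8.13, 7.52 and 5.67, and Rdh10 7.96, 9.39 and 10.11. Higher were Gdf11, a ligand that patterns the trunk-to-tail Hox code (4.86, or 2.67 averaged), and Cyp26b1 (2.13, or 1.36). The receptor genes Rara, Rarb, Rarg, Rxra, Rxrb and Rxrg did not pass, Rara by little (0.57, limma adjusted p = 0.0523). Rara passed when centred on ribosomal protein genes, without the dimmest 33.3% of genes, with averaged probe sets and without any 1 TDECC array. Of the measured Cdx genes, Cdx2 was lower in TDESM by -2.26 (limma adjusted p = 0.00198), and Cdx1 did not pass (-0.02, limma adjusted p = 0.923).

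Other mesenchymal regulators of position were counted by body region. Of 16 measured regulators of head and limb mesenchyme 10 passed as higher and 1 as lower (all genes: 22.1% and 20.6%), at a median of 1.17. On the poly-A controls the median was -0.05, with 6 higher and 6 lower, against 898 higher and 10873 lower of all 14217 genes. By the brightest probe set the largest were Prrx2 (5.74, or 3.00 averaged over probe sets), Alx1 (4.39) and Shox2 (3.80, or 2.19), each from background in TDECC, while Pax9 differed by -2.23. Averaged over probe sets, Prrx1 (5.48, or 3.69 by the brightest) and Twist1 (4.62, or 2.90) were the largest. Of 13 regulators of liver and gut mesenchyme 6 passed as higher and 3 as lower (all genes: 22.1% and 20.6%), at a median of 0.16, or -1.06 on the poly-A controls. Wt1, a gene of mesothelium and the embryonic liver's septum (5.09, or 2.96 averaged; also on the mesothelial list), Barx1 of stomach mesenchyme (4.24) and Foxf1 of gut mesenchyme (3.16, or 1.68) were higher, and Nkx2-3 (-2.52), Osr2 (-1.81) and Gata4 (-1.21, or -0.56) were lower. The Gata4 call was lost without TDECC replicate 3 or TDESM replicate 1 or 2. Both lists thus held genes that were high in TDESM and at background in TDECC.

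**Figure D4:**
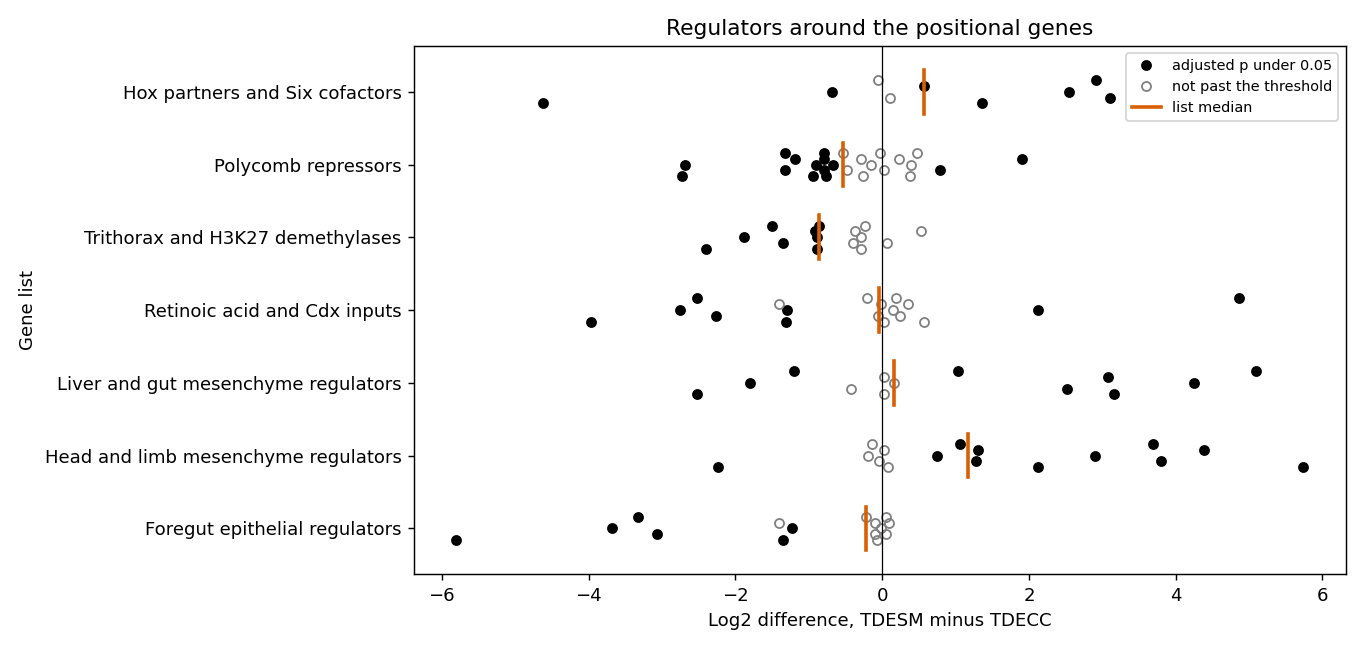
Log2 difference, TDESM minus TDECC, of each measured gene in 7 lists of regulators; filled points passed an adjusted p of 0.05, open points did not, and orange bars are list medians. Head and limb regulators lie mostly to the right (10 higher, 1 lower), trithorax and related genes to the left (0 higher, 8 lower).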

How the data were processed

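Total RNA, extracted with Trizol and labelled as cRNA by the standard Affymetrix procedure per the labels' protocols, was hybridised to 6 rat arrays, 3 per strain, with groups and replicate numbers from the sample titles. The log2 values deposited by the authors are RMA values, a method named in the submitters' processing notes without a version. RMA usually equalises array distributions, which removes a difference in total mRNA, and the table holds no detection calls. Of 31099 probe sets 20826 named 1 gene symbol, 436 several and 9831 were not listed; 0 symbols changed through RefSeq.

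For genes with several probe sets the one of highest average level was used, with no filter on dim genes. All 14217 genes were tested in R 4.3.3 with limma 3.58.1 (lmFit, eBayes), two-sided, with Benjamini-Hochberg adjustment and a threshold of 0.05. Standard errors and 95% intervals come from this fit. It was also run on simulated data that had equal spread in both strains, unlike these arrays. That run therefore does not show how well the intervals hold here. The number of arrays limits the precision. The labels do not say whether equal replicate numbers pair arrays of the strains, and arrays were fitted as unpaired. Deviations of same-numbered arrays correlated at -0.07, 0.02 and -0.14, and those of differently numbered arrays at -0.14 to 0.15. With so few arrays these values cannot decide whether arrays were paired.

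The members and lists were chosen with earlier results of these data known. Array values are given for members past the threshold with a log2 difference of at least 1 and separate groups, and for those over 0.5 whose call or direction turned with a setting; members with several probe sets that differ in sign or by over 1.5 times are given by each; values of further members were added to complete a cluster or family, after they were seen. From each list up to 3 genes each way past the threshold with the largest differences were named. Dot1l, the retinoid receptors, Cdx1, Cdx2, Prrx1, Twist1, genes read as background and those whose sign turned were added after their values were seen. Alternatives were cyclic loess, centring on 15 housekeeping genes, 14 ribosomal protein genes or 24 poly-A control probe sets, dropping the dimmest 33.3% of genes, averaging probe sets, trend and robust eBayes, a replicate block, omitting 1 array at a time, probe sets in place of genes, and a minimum log2 difference of 1.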

Additional observations from a re-analysis of the deposited data

How the results depend on the processing

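Of 42 positional genes 19 passed in the fit reported, and 18 to 21 with cyclic loess, centring on housekeeping or ribosomal protein genes, without the dimmest 33.3% of genes, with the mean of probe sets, trend and robust eBayes or the replicate block, and 17 to 21 leaving out each array in turn. Centred on the poly-A controls, where a call followed the size of the difference, 35 passed, 4 higher and 31 lower. Of these 21 were Hox genes, 1 higher and 20 lower. Over all genes 11771 passed in that setting, 898 higher and 10873 lower. There Hoxa9 turned to -0.66, Hoxa10 to -0.32, Meis3 to -0.27, Pbx2 to -0.18 and Msx1 to -0.34, and, among the genes named from the regulator and marker lists, Des to -0.59, Erg to -0.47, Krt5 to -0.62, Lrrn4 to -0.45 and Pcgf3 to -0.43. Called list genes that also turned were Pknox1 (-0.65), Irx5 (-0.48), Isl1 (-0.19) and Twist2 (-0.15), besides 4 housekeeping genes; the median gene moved by -1.22. With a log2 difference of at least 1 required, 6 positional genes were lower. Hox genes called higher numbered 2 to 4 leaving out each array in turn, the 4 without TDECC replicate 1. Over all genes 6065 were called, 4605 to 4835 without 1 TDESM array and 5830 to 6437 without 1 TDECC array. With the replicate block 19 positional genes passed, 10 higher and 9 lower. Hoxa9 gained its call (limma adjusted p = 0.0427) and Tbx19 lost it (0.0815), and no other positional gene changed. The labels give these arrays a shared number and no more. Levels near background limit the precision: 11 of 42 genes read as background in both strains.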

Other observations

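Regulators of the foregut epithelium, from which bile ducts form, were not part of the comparisons above. Of 15 measured genes of this list 6 passed as lower and 0 as higher by limma (all genes: 20.6% and 22.1%), and 9 did not pass. The list median was -0.22. Elf3, an epithelial factor, differed by -5.80, Pdx1, a regulator of pancreas and duodenum, by -3.68 and Klf5, a factor of gut epithelium, by -3.32. No gene higher in TDESM had an unadjusted p under 0.05 (0 of 15). On the poly-A controls all 15 were called lower, but there the median gene moved by -1.22 and 10873 of all 14217 genes were called lower.

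Hoxa3l1, Hoxa5 and Hoxb6 each read lowest within TDECC on replicate 3, at 7.47, 8.0 and 7.37, against 8.42 to 8.52, 8.82 to 8.94 and 7.87 to 8.07 on the other arrays of that strain. These were picked after their values were seen. Of the 27 positional genes above the background limit in TDECC, 7 read lowest on replicate 1, 12 on replicate 2 and 8 on replicate 3.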
